A study of Homo sapiens with 6 samples.

Results

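The 9 genes described here, HLA-B, HLA-C, HLA-E, B2M, TAP1, TAP2, TAPBP, PSMB8 and PSMB9, encode parts of the pathway that displays peptides on MHC class I molecules. They were taken by symbol from a table of 58735 genes, and all 9 were found. RNA-seq was carried out on HGC-27 cells, an established line of undifferentiated human gastric carcinoma. A short hairpin RNA against ACAT2 (shACAT2) or its control (shNC) was delivered in the pSIH-H1-Puro vector, and each condition gave 3 libraries of total RNA. Both groups of cells were otherwise wild type by label, were exposed to the vector for 24 h and were then kept in puromycin for 7 days, so the control cells had gone through the same selection. The methods describe lentiviral delivery of more than 1 ACAT2 hairpin, and the labels do not say which of them the sequenced cells carried. The methods also name empty vectors as the negative controls, shNC among them. If shNC carried no hairpin, the presence of a hairpin and ACAT2 depletion cannot be told apart here. The labels do not say whether the libraries of a group came from separate cultures, so p-values measure the spread between libraries, which may be technical. The question asked of these genes was whether their RNA differed between ACAT2-depleted and control cells.

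As background, nucleated cells cut cytosolic proteins into peptides with the proteasome and pump some of these peptides into the endoplasmic reticulum. There they are loaded onto a class I heavy chain that is paired with the light chain B2M, and the complex travels to the cell surface, where CD8 T cells read it. Interferons induce much of this machinery, including alternative catalytic subunits that turn the standard proteasome into the immunoproteasome. Natural killer cells also read class I molecules, and tumour cells with little class I on their surface are less visible to CD8 T cells.

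Of the 9 genes, 8 lie on chromosome 6, within or beside the MHC region, and B2M lies on chromosome 15. Promoter windows from RefSeq (GRCh38.p14), running from 250 bases before to 50 bases after a transcript start, were found for 8 of the 9 genes, all but HLA-E, in 10 windows. The windows are shown because interferon-responsive promoters carry repeats of GAAA, and the stretches below hold such repeats near the starts of these genes. Both strands were searched, after the sequences had been looked at, for GAAA, any 2 bases and GAAA (the long repeat) and for GAA, any 2 bases and GAAA (the short repeat), and a match of the long repeat can overlap one of the short repeat. Capitals mark every matching base, and each stretch reads 5′ to 3′ in the direction of its gene, so that TTTC in capitals is GAAA on the other strand.
HLA-B, chr6:31357320-31357340, minus strand: cctgagTTTCACTTCttctcc
HLA-C, chr6:31272229-31272249, minus strand: cctgagTTTCACTTCtcccaa
TAP1, chr6:32853817-32853844, minus strand: ggccgcTTTCGATTTCGCTTTCccctaa
TAPBP, chr6:33314077-33314104, minus strand: ttggagGAAAGTGAAAGTGAAAggagga
PSMB8, chr6:32844031-32844057, minus strand: tgtggcTTTCGCTTTCACTTCctcctc

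For B2M and TAP2, the genes of the set whose RNA passed the test, the part of the window that lies outside the gene's span in the table is given whole, with the same use of capitals.
B2M, chr15:44711267-44711486, plus strand: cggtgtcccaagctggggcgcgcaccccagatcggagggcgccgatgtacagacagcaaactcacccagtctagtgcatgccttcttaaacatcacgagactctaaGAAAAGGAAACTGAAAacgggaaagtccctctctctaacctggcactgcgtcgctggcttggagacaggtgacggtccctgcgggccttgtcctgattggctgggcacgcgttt
TAP2, chr6:32838781-32838989, minus strand: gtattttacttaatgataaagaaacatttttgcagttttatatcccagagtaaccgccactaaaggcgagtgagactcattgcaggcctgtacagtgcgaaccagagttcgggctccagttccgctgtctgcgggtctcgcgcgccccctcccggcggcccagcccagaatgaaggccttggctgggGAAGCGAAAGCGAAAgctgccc

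The long repeat was held by 5 of the 8 genes with a window, B2M, TAP1, TAP2, TAPBP and PSMB8, and by 3.57% of all 35116 promoters searched. The short repeat was held by 4, HLA-B, HLA-C, TAP2 and PSMB8, and by 7.66% of all promoters. Long and short repeats overlap in TAP2 and in PSMB8, and the PSMB8 stretch spans the transcript start of the gene's second RefSeq window. The window of PSMB9 held neither. Its transcript start lies only 488 bases from the transcript start of the first TAP1 window, on the opposite strand. The TAP1 stretch printed above lies between these starts. It is thus upstream of PSMB9 too, but outside the PSMB9 window, which begins at chr6:32853942. CCAAT, the box bound by NF-Y, was held by 5 genes, HLA-B, HLA-C, B2M, TAP1 and PSMB9, and by 34.6% of all promoters. A match describes the reference letters in this window and does not show a site in use, and HGC-27 cells may carry other alleles.

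The libraries held between 14086416 and 16067486 fragments on genes. ACAT2, the targeted gene, read 14.2, 11.7 and 12.7 FPKM (fragments divided by gene length in kilobases and by library depth) in shNC and 6.19, 5.46 and 6.05 FPKM in shACAT2, a log2 fold change of −1.01 (limma adjusted p = 0.00594; 0.0512 without shNC-3). One library stood apart: shACAT2-3 held fragments of 36466 genes, against 25337 to 27196 in the others. Of the control libraries, shNC-2 and shNC-3 lay closest, with a chi-square per gene of 1.71, while all other within-group pairs lay between 10.8 and 39.3. Markers of gastric tissue were nearly absent: their summed level was 0.0746 to 0.224 FPKM in shNC and 0.0169 to 0.375 FPKM in shACAT2, with TFF1 and GKN1 at 0 in all 6 libraries. The 5 epithelial markers summed to 0.505 to 0.83 FPKM in shNC and to 1.44 to 2.21 FPKM in shACAT2, none of them high enough to be tested. Most of that difference lay in CDH1, at 0.222, 0.12 and 0.141 FPKM in shNC and 0.608, 0.828 and 1.15 FPKM in shACAT2. EPCAM, KRT8, KRT18 and KRT19 overlapped between the groups. The 8 leukocyte markers summed to 1.35 to 1.61 FPKM in shNC and to 1.64 to 1.99 FPKM in shACAT2, with PTPRC, the pan-leukocyte marker, at no more than 0.0727 FPKM. The 3 endothelial markers summed to at most 0.373 FPKM. The part of these marker levels in the results below was not tested.

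In shNC cells the 9 genes spanned a wide range of levels per length. B2M was highest, with 35.0 ± 3.46 FPKM (SD, n = 3), at percentile 91.7 of the 13832 genes tested. HLA-E followed with 20.4 ± 2.49 FPKM and TAPBP with 14.8 ± 1.30 FPKM, and the libraries of these 3 genes did not overlap each other. TAP1, TAP2, HLA-B and PSMB8 came next with means of 5.65, 5.06, 4.18 and 3.77 FPKM, and each overlapped its neighbour in this order. HLA-C at 3.05 FPKM and PSMB9 at 2.18 FPKM, percentile 24.5, were lowest and overlapped neither each other nor PSMB8. The classical heavy chains HLA-B and HLA-C thus lay below the light chain and below the nonclassical HLA-E.

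ACAT2-depleted cells held more RNA of B2M and of TAP2, and no gene of the set was called lower. The limma fit on log2(FPKM + 1) covered the 13832 genes whose mean reached 1 FPKM in shNC or in shACAT2, and all 9 genes passed this filter. At a Benjamini-Hochberg adjusted p below 0.05, 2 of the 9 differed, beside 5.1% of all genes tested. Both were higher in shACAT2, beside 3.3% of all genes, and 0 were lower, beside 1.81%. In bulk RNA, more cells with a transcript and more of it per cell cannot be told apart. At an unadjusted p below 0.05 these numbers were 4 and 0, beside 12.8% and 10.7% of all genes. The means of 8 of the 9 lay higher in shACAT2, beside 7234 of the 13832 genes tested. The median log2 fold change was 0.35, against 0.02 over all genes tested, and 0.20 without shACAT2-1. For 5 genes every shACAT2 library lay above every shNC library, beside 16.2% of all genes, and for 1 gene below, beside 14.5%. The rule of the study, an absolute log2 fold change above 1 with an unadjusted p below 0.05, was applied to this limma fit. No gene of the set met it, beside 1.5% of all genes. The study's own test and fold-change scale may differ from those used here, so its own list of genes need not be the same. With 3 libraries against 3, an exact two-sided permutation test of a single gene cannot go below p = 0.1.

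**Figure D1:**
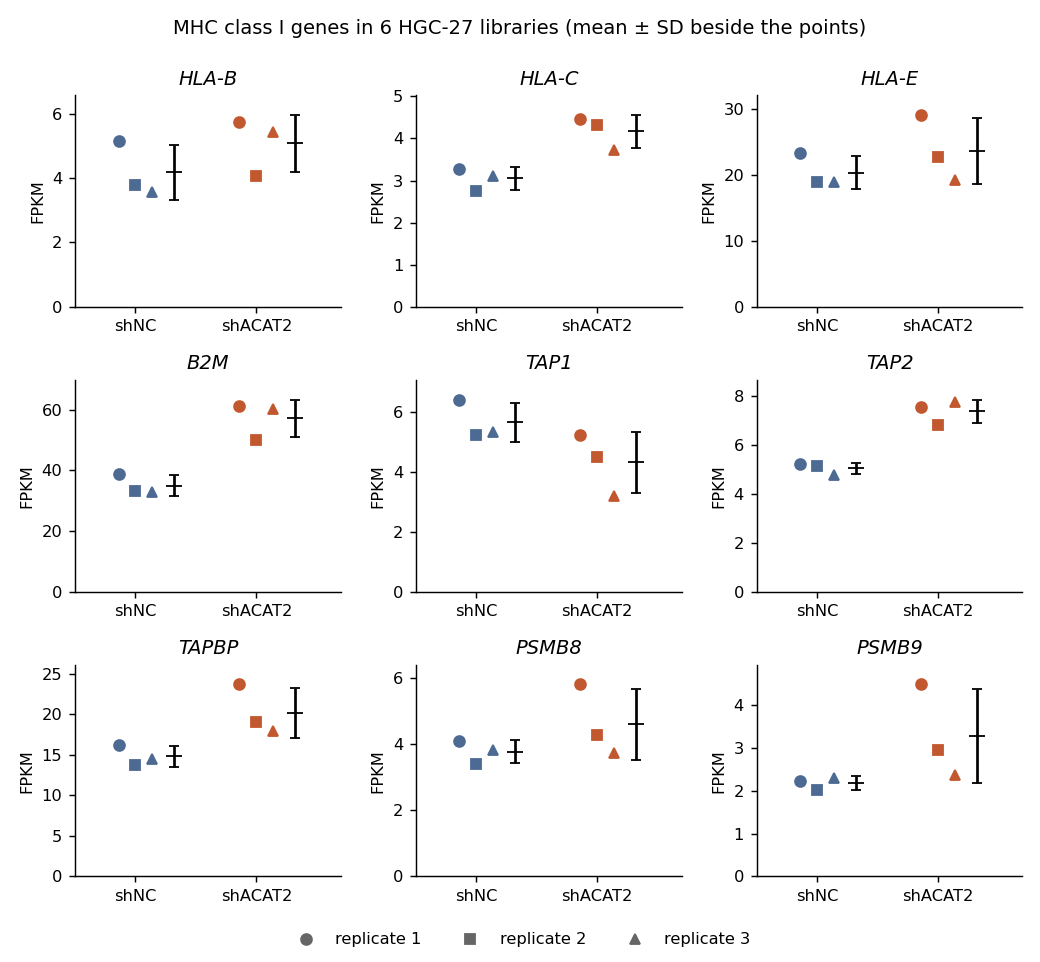
FPKM of each of the 9 genes (y axis, starting at 0) in the 3 shNC and 3 shACAT2 libraries, with the replicate number as the marker shape and mean ± SD beside the points. B2M and TAP2 separate by group with a gap, TAP1 lies lower in shACAT2 by mean, and HLA-B, HLA-E and PSMB8 overlap between the groups.

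The light chain B2M (ENSG00000166710, chr15:44711487-44718877, plus strand), which every class I heavy chain needs for folding and surface display, rose by the most. Its level was 39.0, 33.2 and 32.8 FPKM in shNC-1, shNC-2 and shNC-3, and 61.3, 50.0 and 60.3 FPKM in shACAT2-1, shACAT2-2 and shACAT2-3. Every shACAT2 library lay above every shNC library, and the lowest of them exceeded the highest control by a wide margin. The means were 35.0 ± 3.46 and 57.2 ± 6.24 FPKM (SD, n = 3 each), a ratio of 1.63, and the fitted log2 fold change was 0.69 (SE 0.13; limma adjusted p = 0.032). Between 3275 and 5656 fragments lay behind each value, so counting error was at most 1.75%. Its window, printed above, holds 2 overlapping long repeats, as do windows of TAP1 and TAPBP, which did not pass the test. The difference kept its direction under all 14 other settings, with log2 fold changes from 0.63 to 0.78, but it passed the threshold in only 7 of them. With 1 library left out it passed only without shACAT2-1 (limma adjusted p = 0.0434). The limma adjusted p was 0.0746 without shNC-1, 0.158 without shNC-2, 0.163 without shNC-3, 0.0699 without shACAT2-2 and 0.0542 without shACAT2-3.

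None of the heavy chains of the set passed the test, and their libraries behaved in different ways. HLA-C (ENSG00000204525, chr6:31268749-31272130, minus strand), a classical chain that also serves as a ligand of killer-cell receptors, read 3.28, 2.76 and 3.10 FPKM in shNC and 4.47, 4.32 and 3.72 FPKM in shACAT2. The groups did not overlap, with means of 3.05 ± 0.268 and 4.17 ± 0.395 FPKM, and the log2 fold change was 0.35 (SE 0.10; unadjusted p = 0.0107, limma adjusted p = 0.101), and 0.30 to 0.42 with 1 library left out. HLA-C rests on the fewest fragments of the heavy chains, 112 to 180 a library.

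HLA-B (ENSG00000234745, chr6:31269491-31357188, minus strand), a classical chain and the most polymorphic human class I gene, read 5.16, 3.80 and 3.57 FPKM in shNC and 5.74, 4.06 and 5.44 FPKM in shACAT2. The groups overlapped, since shACAT2-2 lay below shNC-1. The log2 fold change was 0.23 (SE 0.16; limma adjusted p = 0.428). Leaving out 1 library moved it to as little as 0.15 (without shNC-3, or without shACAT2-1) and to as much as 0.36 without shACAT2-2 and 0.365 without shNC-1.

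HLA-E (ENSG00000204592, chr6:30489467-30494205, plus strand), a nonclassical chain that presents leader peptides of other class I chains to NKG2A on natural killer cells, read 23.3, 19.0 and 19.0 FPKM in shNC and 29.2, 22.8 and 19.2 FPKM in shACAT2. Only shACAT2-1 exceeded all controls, while shACAT2-3 lay between the control libraries. Its log2 fold change was 0.19 (SE 0.17; limma adjusted p = 0.545), 0.04 without shACAT2-1 and 0.33 without shACAT2-3.

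The heavy chains are near-copies of each other, which bears on how reads can be split between them. Of the 40-base stretches in the reference transcripts, 5.56% of those of HLA-B, 9.0% of those of HLA-C and 6.54% of those of HLA-E also occur in transcripts of another gene, and 4.26% of those of HLA-B occur in HLA-C. The annotated exons of HLA-B and HLA-C also share 35 bases. The values of these 3 genes are uncertain to that extent, and the cell line's own alleles, which can differ from the reference, were not tested. For B2M this share was 0.395%, and no such stretch of PSMB8 occurs in another gene.

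The genes of the peptide transporter differed in the sign of their fold change. TAP1 and TAP2 encode the partners of the TAP heterodimer, which carries peptides from the cytosol into the endoplasmic reticulum. TAP2 (ENSG00000204267, chr6:32821833-32838780, minus strand) read 5.24, 5.14 and 4.80 FPKM in shNC and 7.57, 6.85 and 7.77 FPKM in shACAT2. The groups did not overlap, and both were tight, with means of 5.06 ± 0.229 and 7.39 ± 0.486 FPKM. TAP2 rose by a log2 fold change of 0.47 (SE 0.09; limma adjusted p = 0.0334), a ratio of means of 1.46. Its window holds 1 long and 1 short repeat, as does a window of PSMB8, which did not pass the test. It kept its direction in all 14 other settings and passed the threshold in 6 of them. The limma adjusted p was 0.0434 without shACAT2-1, 0.101 without shNC-1, 0.153 without shNC-2, 0.174 without shNC-3, 0.0886 without shACAT2-2 and 0.0627 without shACAT2-3. An annotated transcript of the same strand, AL669918.1, covers 32.3% of the exon bases of TAP2 and was listed at 0 to 0.0429 FPKM.

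TAP1 (ENSG00000168394, chr6:32845209-32853978, minus strand) read 6.41, 5.24 and 5.31 FPKM in shNC and 5.24, 4.50 and 3.20 FPKM in shACAT2. The highest shACAT2 value equals the lowest shNC value to 3 digits and lies just below it, so the groups touch without overlapping. The log2 fold change was −0.34 (SE 0.16; unadjusted p = 0.0723, limma adjusted p = 0.257), with means of 5.65 ± 0.654 and 4.31 ± 1.03 FPKM. It was the only gene of the 9 with a lower mean in shACAT2, and its log2 fold change stayed negative in all 14 other settings, between −0.46 and −0.18, the latter without shACAT2-3.

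Within each library the ratio of TAP1 to TAP2 was 1.22, 1.02 and 1.11 in shNC and 0.692, 0.657 and 0.412 in shACAT2. The groups were well separated, with means of 1.12 ± 0.103 and 0.587 ± 0.152. In FPKM, TAP1 thus went from about the value of TAP2 to below it in every shACAT2 library. How reads in the exon bases shared by TAP2 and AL669918.1 were counted is not given in the sources used here. The level of TAP2 beside that of TAP1 is uncertain to that extent. The exact two-sided permutation test gave p = 0.1, the smallest possible here, or 0.2 adjusted over the 6 ratios computed. All 6 ratios were chosen after the values had been seen, and they do not depend on the scaling of a library. The exons of TAP1 overlap those of PSMB8-AS1 on the opposite strand by 456 bases, and that antisense RNA was listed at 0.0308 to 0.239 FPKM.

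Tapasin, encoded by TAPBP (ENSG00000231925, chr6:33299694-33314387, minus strand), bridges the transporter and the empty class I molecule and edits the peptides that are loaded. It read 16.2, 13.7 and 14.5 FPKM in shNC and 23.7, 19.1 and 18.0 FPKM in shACAT2. All shACAT2 libraries lay above all shNC libraries. The means were 14.8 ± 1.30 and 20.2 ± 3.06 FPKM and the log2 fold change 0.42 (SE 0.13), with an unadjusted p = 0.0153 and a limma adjusted p = 0.118. With the replicate number as a block in the limma fit the adjusted p was 0.0373, the only one of the 14 other settings in which TAPBP passed. With 1 library left out its log2 fold change was 0.31 to 0.50.

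The immunoproteasome subunits of the set did not pass the test. PSMB8 (ENSG00000204264, chr6:32840717-32844703, minus strand), which takes the place of PSMB5 in the catalytic core, read 4.10, 3.40 and 3.81 FPKM in shNC and 5.80, 4.28 and 3.74 FPKM in shACAT2. The groups overlapped through shACAT2-3, which lay below shNC-1 and shNC-3. The log2 fold change was 0.22 (SE 0.15; limma adjusted p = 0.424), between 0.07 without shACAT2-1 and 0.33 without shACAT2-3.

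PSMB9 (ENSG00000240065, chr6:32844136-32859585, plus strand), which takes the place of PSMB6, read 2.23, 2.01 and 2.30 FPKM in shNC and 4.48, 2.96 and 2.36 FPKM in shACAT2. The groups did not overlap, but shACAT2-3 lay only just above the controls while shACAT2-1 lay far above them. Its log2 fold change was 0.40 (SE 0.18; limma adjusted p = 0.243), 0.20 without shACAT2-1 and 0.55 without shACAT2-3. PSMB9 had 100 to 209 fragments a library, so that counting error reached 10.0% in the lowest. Its exons share 139 bases with those of PSMB8 on the opposite strand, and the strand setting of the counting is not given in the sources used here.

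**Figure D2:**
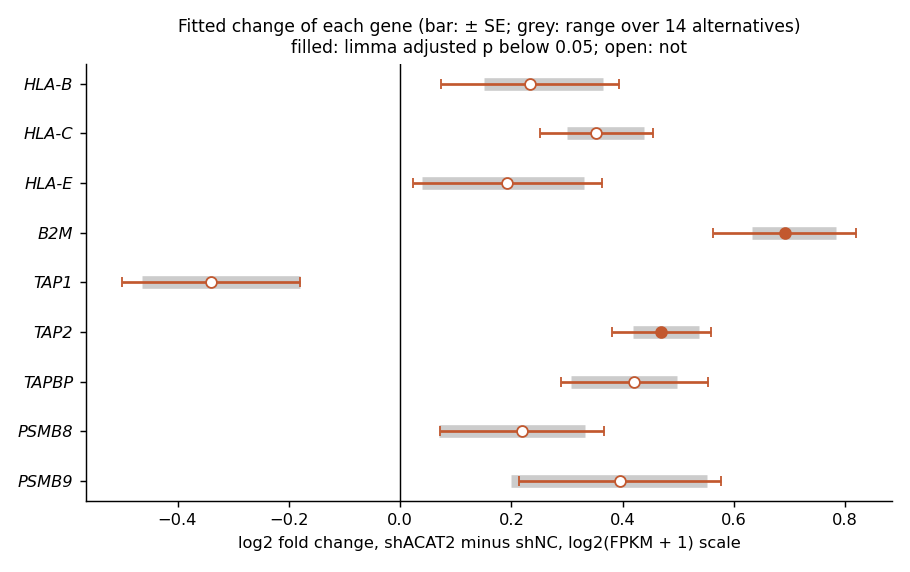
Fitted log2 fold change of each gene, shACAT2 minus shNC, on the log2(FPKM + 1) scale (x axis), with bars of ± SE and the range over 14 other settings in grey. Filled points passed a limma adjusted p below 0.05, B2M at 0.69 and TAP2 at 0.47, and TAP1 at −0.34 is the only gene left of 0.

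The standard catalytic subunits lay far above the immunoproteasome ones per length. PSMB5 read 105, 86.8 and 92.2 FPKM in shNC and 128, 90.6 and 58.3 FPKM in shACAT2 (log2 fold change −0.10, limma adjusted p = 0.86). PSMB6 went from a mean of 63.6 ± 9.0 to 69.0 ± 18.9 FPKM and PSMB7 from 90.8 ± 9.57 to 110 ± 17.3 FPKM, with limma adjusted p of 0.84 and 0.314. PSMB10, which replaces PSMB7, read 1.80, 1.53 and 1.60 FPKM in shNC and 1.81, 1.79 and 0.755 FPKM in shACAT2 (limma adjusted p = 0.724). In all 4 the groups overlapped, and shACAT2-3 was the lowest of all 6 libraries for PSMB5, PSMB6 and PSMB10.

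The RNA of each immunoproteasome subunit was also taken as a ratio of FPKM to that of the subunit it replaces. Such a ratio does not measure the share of either proteasome form as protein. PSMB8 over PSMB5 was 0.0392, 0.0391 and 0.0414 in shNC and 0.0452, 0.0472 and 0.064 in shACAT2. PSMB9 over PSMB6 was 0.0302, 0.0345 and 0.0393 in shNC and 0.0506, 0.0439 and 0.0464 in shACAT2. Both ratios lay higher in every shACAT2 library than in every shNC library, by 30.8% and 35.5% of the mean, and each gave the smallest exact permutation p, 0.1, or 0.2 adjusted over the 6 ratios. PSMB10 over PSMB7, the remaining pair, was 0.0177, 0.0182 and 0.0185 in shNC and 0.0139, 0.0182 and 0.00732 in shACAT2, so its groups overlapped and its mean was lower in shACAT2 (exact permutation p = 0.3, 0.36 adjusted). Its lowest value rests on 21 fragments of PSMB10. For PSMB8 the order of the shACAT2 libraries differed between level and ratio: shACAT2-3, lowest for the PSMB8 level, was highest for the PSMB8 ratio. In that library PSMB8 read 3.74 FPKM, beside a shNC mean of 3.77 FPKM, while PSMB5 read 58.3 FPKM, its lowest. The high ratio there thus goes with a low PSMB5 and not with more PSMB8. In absolute terms all 3 ratios stayed under 0.07 in all libraries.

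**Figure D3:**
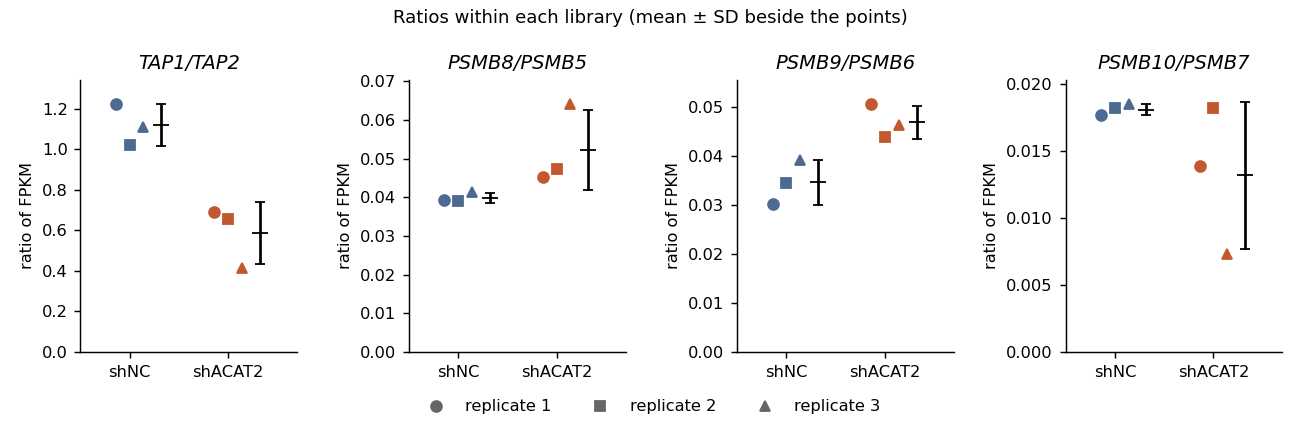
Ratios of FPKM within each library (y axes, starting at 0) for TAP1 over TAP2, PSMB8 over PSMB5, PSMB9 over PSMB6 and PSMB10 over PSMB7, in 3 shNC and 3 shACAT2 libraries, with mean ± SD beside the points. The TAP1 to TAP2 ratio lies at 1.02 to 1.22 in shNC and at 0.412 to 0.692 in shACAT2, the ratios of PSMB8 and PSMB9 lie higher in shACAT2, and that of PSMB10 overlaps between the groups.

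The ratio of the classical heavy chains did not separate the groups. HLA-B over HLA-C was 1.57, 1.38 and 1.15 in shNC and 1.29, 0.94 and 1.46 in shACAT2, which overlap (exact permutation p = 0.6, 0.6 adjusted).

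The 3 shACAT2 libraries differed in how far the genes of the set lay above the controls. Relative to the mean log2 FPKM of the shNC libraries, the median over the 9 genes was 0.58 in shACAT2-1, 0.37 in shACAT2-2 and 0.28 in shACAT2-3. In the shNC libraries it was 0.14, −0.11 and −0.08. The library shACAT2-1 was the highest of its group for 8 of the 9 genes, all but TAP2, and shNC-1 was likewise the highest control for 8, all but PSMB9. The library shACAT2-3 was the lowest of its group for 6 genes, including PSMB9, PSMB8 and HLA-E, but not for B2M or TAP2. TAP1 had the lowest relative level of the 9 genes in each shACAT2 library, at −0.10, −0.32 and −0.81. Fragments on genes, as a percentage of the authors' FPKM denominator, were highest within their groups in shACAT2-1 (104.51%) and shNC-1 (97.9%). With upper-quartile or library-size scaling the median log2 fold change of the 9 genes was 0.306 or 0.314. The part of the gap between libraries in the results was otherwise tested only by leaving each library out.

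**Figure D4:**
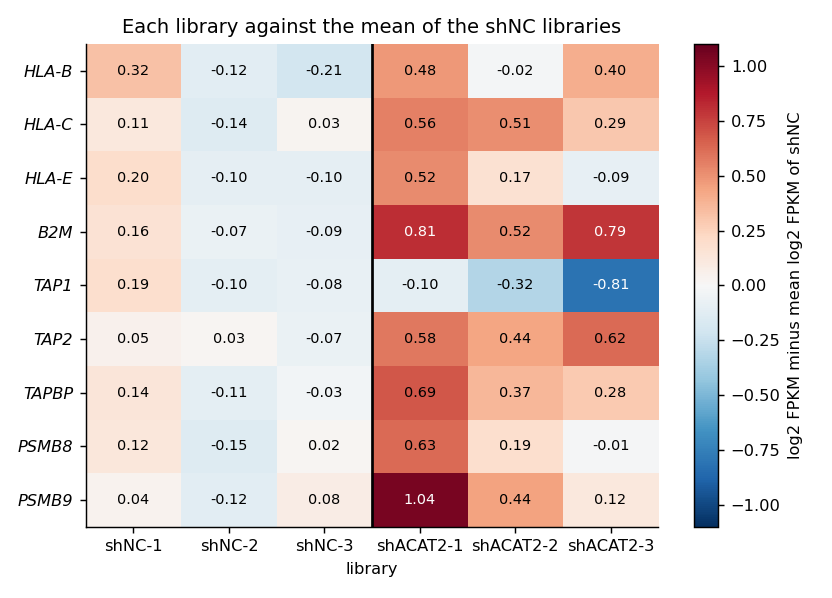
log2 FPKM of each gene (rows) in each library (columns) minus the mean log2 FPKM of that gene in the shNC libraries, in colour and as numbers. The shACAT2-1 column runs up to 1.04 for PSMB9, the B2M and TAP2 rows are positive in all 3 shACAT2 libraries, and the TAP1 row falls to −0.81 in shACAT2-3.

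Around these 9 genes, 86 others of the pathway and its surroundings were listed, of which 63 were high enough to be tested. Of these, 2 rose and 0 fell at a limma adjusted p below 0.05, beside 3.3% and 1.81% of all genes. At an unadjusted p below 0.05, 14 were higher and 5 lower, beside 12.8% and 10.7% of all genes. The median log2 fold change was 0.09, against 0.02 over all genes tested. A higher mean in shACAT2 was found for 44 of the 63, beside 7234 of the 13832 genes tested. With the replicate number as a block, 9 of the 63 passed the limma test, 8 of them higher, beside 12.5% of all genes with that block. Both called genes encode a chain of an interferon receptor, in a list of 22 tested regulators of which 15 had a higher mean (median 0.08).

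IFNGR1, the ligand-binding chain of the receptor for interferon gamma, read 7.34, 8.39 and 7.93 FPKM in shNC and 18.2, 19.7 and 18.2 FPKM in shACAT2. All shACAT2 libraries lay more than 2-fold above the control mean. Its log2 fold change of 1.15 (limma adjusted p = 0.00347) was past the threshold in all 14 other settings, where the adjusted p ran from 0.00118 to 0.0348. IFNAR1, a chain of the receptor for type I interferons, read 4.26, 5.39 and 5.00 FPKM in shNC and 6.97, 7.78 and 8.62 FPKM in shACAT2, without overlap (log2 fold change 0.58, limma adjusted p = 0.0385). The call on IFNAR1 held in 4 of the 14 other settings, and the adjusted p reached 0.155 without shNC-3. The other chains of these receptors were not called. IFNGR2 overlapped between the groups, with means of 8.9 FPKM in shNC and 9.48 FPKM in shACAT2 (limma adjusted p = 0.76). IFNAR2 was too low to be tested, with means of 0.291 FPKM in shNC and 0.192 FPKM in shACAT2, which also overlapped.

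NLRC5 and IRF1, which drive class I genes, did not pass the test. NLRC5, the activator of class I promoters, read 1.94, 2.00 and 2.03 FPKM in shNC and 2.10, 1.94 and 2.21 FPKM in shACAT2 (log2 fold change 0.04, limma adjusted p = 0.824). IRF1, which binds interferon-responsive elements, went from a mean of 1.09 ± 0.0608 to 1.28 ± 0.0519 FPKM without overlap (log2 fold change 0.13, limma adjusted p = 0.548).

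The remaining lists held no gene past the adjusted threshold. Beside their counts of higher means stand 7234 of the 13832 genes tested. Of 5 tested heavy chains and class I-like genes outside the set, 3 had a higher mean in shACAT2. All 12 genes of loading and peptide trimming were tested, 8 with a higher mean (median 0.05), and of 4 partners of the immunoproteasome 3 had a higher mean (median 0.07). Of the 10 tested subunits of the proteasome core outside the catalytic ones, 9 had a higher mean (median 0.19). Of 5 tested genes of class I turnover, 2 had a higher mean (median −0.01). Of 10 genes of the MHC class II pathway, 1 was tested, HLA-DMA, at 0.50, and of 3 checkpoint ligands 1 was tested, CD47, at 0.34, neither passing the adjusted threshold (limma adjusted p = 0.0877 and 0.104). CIITA, the activator of class II genes, read 0.0609 to 0.148 FPKM over all 6 libraries.

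Genes that lie between the outermost members on chromosome 6, from HLA-E to TAPBP (chr6:30489467-33314387) are given for the region around them. The table holds 235 other genes there, of which 71 were tested. Of the 71, 34 had a higher mean in shACAT2, beside 7234 of the 13832 genes tested. The median log2 fold change of the 71 was −0.02, against 0.35 for the 9 genes. Of these, 1 rose and 1 fell at a limma adjusted p below 0.05, beside 3.3% and 1.81% of all genes. IER3, an early response gene, read 4.53, 5.19 and 4.62 FPKM in shNC and 15.5, 9.01 and 9.78 FPKM in shACAT2 (limma adjusted p = 0.0286). MDC1, a mediator of the DNA damage checkpoint, read 18.9, 17.4 and 16.3 FPKM in shNC and 11.0, 10.8 and 12.0 FPKM in shACAT2 (limma adjusted p = 0.0242). The next by p in each direction were NEU1, a lysosomal sialidase, with a log2 fold change of 0.57 (limma adjusted p = 0.0623), and MIR219A1, with 4 fragments or fewer in each shNC library and 0 in each shACAT2 library (limma adjusted p = 0.107).

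**Figure D5:**
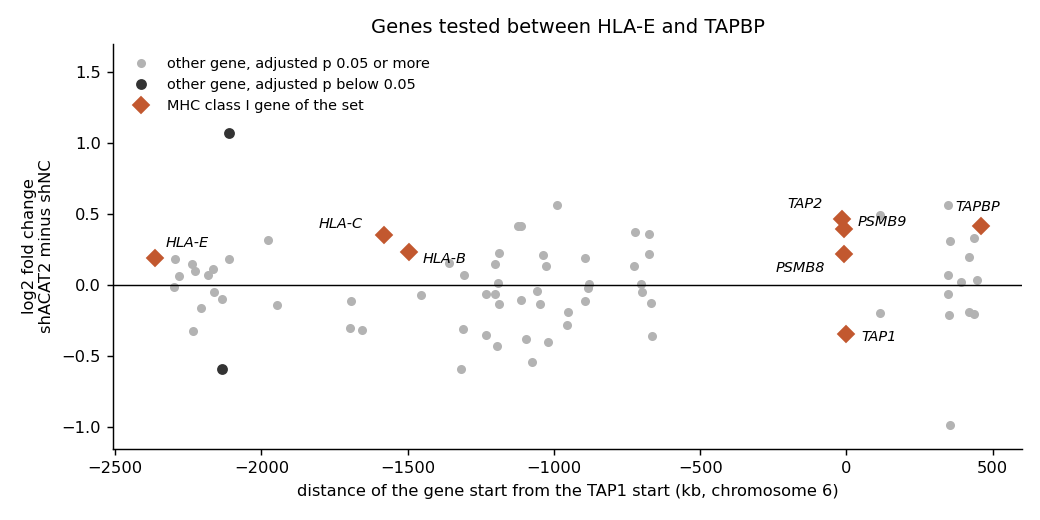
log2 fold change, shACAT2 minus shNC (y axis), of every gene tested between HLA-E and TAPBP on chromosome 6, by distance of its start from the TAP1 start in kb (x axis). The 8 genes of the set on this chromosome lie above 0 except TAP1, and black points mark the other genes past a limma adjusted p below 0.05, IER3 at 1.07 and MDC1 at −0.59.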

How the data were processed

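Total RNA of HGC-27 cells was sequenced as 3 shNC and 3 shACAT2 libraries. The authors deposited FPKM values, and the submitters' processing notes name HISAT2 2.0.5, featureCounts 1.5.0-p3, DESeq2 1.20.0 and build hg38, without their roles. The gene lengths of the 9 genes equal the summed exons of GENCODE 29. Fragments were read back from FPKM and gene length (100% whole, tolerance 0.01). The number of genes tested, 13832, follows from a minimum mean of 1 FPKM in either group. Testing used limma 3.58.1 (R 4.3.3, trend) on log2(FPKM + 1), a scale that understates changes of low genes, with Benjamini-Hochberg adjustment over all genes tested, and Python 3.11.15, numpy 2.4.6 and pandas 2.3.3 otherwise. The fit was tested on simulated data. The 12 symbols turned into dates were restored by gene ID.

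The genes and lists were chosen with earlier results of these data known. Genes named were the 9, ACAT2, list genes past adjusted p 0.05, PSMB5, PSMB6, PSMB7, PSMB10, NLRC5, IRF1 and the 2 neighbours of smallest p in each direction. Others were chosen after their values were seen. Results for 2 further genes of the lists and 1 of the 6 ratios are not reported here.

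Libraries with the same replicate number deviated together (r = 0.445, 0.126 and 0.171), but shNC-2 with shACAT2-3 gave 0.198 and shNC-3 with shACAT2-2 gave 0.141. These values do not tell how replicates 2 and 3 would pair. The numbers were taken as pairs only in the setting with the replicate block. The main fit and the permutation tests used no pairing. The labels do not state a pairing. The authors' denominator of FPKM differed from the fragments on genes, which were 93.03% to 104.51% of it. Tried besides were scaling to the upper quartile or to library size, 2 other filters, a pseudocount of 0.1, the replicate block, limma-voom on the fragments, other thresholds, averaging shNC-2 with shNC-3, and leaving out each library.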

Additional observations from a re-analysis of the deposited data

How the results depend on the processing

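The direction of all 9 genes was kept in all 14 other settings. Of the 9, 2 passed a limma adjusted p below 0.05. The number was 1 with upper-quartile scaling, 0 with no filter (4 at an unadjusted p below 0.05), 0 with shNC-2 and shNC-3 averaged (3 at an unadjusted p), 4 at an unadjusted p of 0.05 and 0 by the rule of the study. It was 0 to 2 with 1 library left out, with 2 to 5 at an unadjusted p, 3 with the replicate block and 2 with limma-voom. Their median log2 fold change of 0.35 ran from 0.20 (without shACAT2-1) to 0.42 with 1 library left out. Of the 63 other pathway genes, 2 passed. The number was 1 with upper-quartile scaling, 1 with library-size scaling, 1 with no filter, 4 where every library had to hold 10 fragments, 9 with the replicate block, 1 with shNC-2 and shNC-3 averaged, 19 at an unadjusted p, 1 by the rule of the study and 1 to 4 with 1 library left out. Of all genes, 706 passed. The number was 209 with no filter, 1727 with the replicate block, 1167 with limma-voom, 83 with shNC-2 and shNC-3 averaged, 3253 at an unadjusted p, 207 by the rule of the study and 63 to 862 with 1 library left out (63 without shNC-3). Higher genes made up 64.6% of these calls, 54.4% with upper-quartile scaling, 55.3% with library-size scaling and 50.3% with limma-voom. Settings that leave out or average libraries test fewer samples, and no filter tests more genes. The cause of the other shifts was not tested. The replicate block changed the call of TAPBP and of no other gene of the 9. Low fragment numbers limit HLA-C and PSMB9 most.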

Other observations

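Some genes of the pathway lists that missed the adjusted threshold passed it in another setting. Not all of them are given here, and those given were chosen after their values had been seen. CANX, the chaperone calnexin that holds new heavy chains, read 166, 192 and 191 FPKM in shNC and 216, 275 and 272 FPKM in shACAT2, with every shACAT2 library above every control (log2 fold change 0.47; limma adjusted p = 0.104, 0.0318 with the block). PDIA3, the oxidoreductase of the loading complex, read 75.2, 65.5 and 66.8 FPKM in shNC and 99.5, 87.5 and 99.1 FPKM in shACAT2, also without overlap (log2 fold change 0.46; limma adjusted p = 0.0678, 0.0325 with the block, 0.0389 with limma-voom). JAK2, a kinase bound to the interferon gamma receptor, read 2.14, 2.91 and 2.44 FPKM in shNC and 2.84, 4.47 and 4.24 FPKM in shACAT2, which overlap between shNC-2 and shACAT2-1 (limma adjusted p = 0.15, 0.0448 with the block). SOCS1, an inhibitor of interferon signalling, read 0.691, 0.618 and 0.484 FPKM in shNC and 1.76, 1.37 and 0.965 FPKM in shACAT2 (limma adjusted p = 0.111), and passed only where every library had to hold 10 fragments (limma adjusted p = 0.0355). ULBP3, a class I-like gene, was the 1 lower gene among the 9 that passed with the block. It read 2.78, 2.12 and 2.29 FPKM in shNC and 1.93, 1.34 and 1.42 FPKM in shACAT2, without overlap. Its log2 fold change was −0.41 (limma adjusted p = 0.133, 0.0488 with the block), on 21 to 42 fragments a library.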
